A study of Mus musculus with 6 samples.

Results

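The genes described here are the potassium channel genes, taken as the protein-coding genes whose symbol starts with Kcn. They number 94 among the 54532 genes of the deposited expression table, and 5 further Kcn symbols belong to antisense or other non-coding RNAs and were left out. RNA with poly(A) tails was sequenced from the hearts of Mc4r knockout (Mc4r KO) mice and wild-type (WT) mice of 12 weeks, with 3 mice in each group and 1 library per mouse. Mc4r encodes the melanocortin-4 receptor, a receptor of hypothalamic neurons that limits food intake, and the knockout mice are homozygous. Both groups were littermates from crosses of heterozygous mice on the C57B/6/N background, fed standard chow, and no treatment is named for either. The sample labels name the tissue as heart in the source field and as muscle in the title, and the study's text speaks of the left ventricle. Values are FPKM, which divide the fragments counted on each gene by its length and by a factor of the library, so levels of different genes can be set side by side. Where 3 values of a group are listed, they stand in the order of the replicate numbers.

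Potassium channels let potassium leave the cell and so bring the membrane back to its resting voltage after each heartbeat. Voltage-gated channels (Kv) open on depolarization: in the mouse ventricle the Kv4 pore subunits with their KChIP partner, Kcnip2, carry the fast transient outward current, Kcna4 carries its slowly recovering form, and Kcna5 carries a sustained outward current. Kcnh2 and Kcnq1, the latter together with the accessory subunit Kcne1, form the delayed rectifiers that dominate repolarization in large mammals. Inward rectifiers hold the resting voltage (Kcnj2, Kcnj12), answer to acetylcholine in the atria and the nodes (Kcnj3, Kcnj5) or open when ATP runs low (Kcnj8, Kcnj11). Two-pore channels, such as Kcnk3 and Kcnk2, carry background leak currents, and other channels open on intracellular calcium (Kcnn, Kcnma1) or sodium (Kcnt).

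Between 14691076 and 16047003 reads per library were counted on genes, and 3 reads on a gene of 1 kb correspond to 0.176 to 0.213 FPKM. Mc4r itself had 0 reads in 5 libraries and 2 reads in WT replicate 3, so the genotype could not be checked from its expression. WT replicate 3 stood apart from the other libraries in its atrial markers. The summed FPKM of 7 atrial markers was 848 in WT replicate 3, 29.5 and 103 in WT replicates 1 and 2, and 6.65 to 144 in the Mc4r KO libraries. Bmp10, a marker of the atria, was at 50.4 FPKM in WT replicate 3 and at 0.215 or less in the other 5. Without Nppa, the highest marker, the atrial sums were 1.26, 51.1 and 534 FPKM in WT and 63.5, 1.25 and 1.19 in Mc4r KO. WT replicate 2 and Mc4r KO replicate 1 therefore also held atrial markers, at lower levels than WT replicate 3. Ventricular markers were high throughout, with sums of 12196 to 13026 in WT and 15205 to 16635 in Mc4r KO. Reads on mitochondrial genes took 34.9%, 32.6% and 26.3% of the WT libraries and 23.3%, 25.8% and 23.4% of the Mc4r KO libraries, so that WT replicate 3 lay next to the Mc4r KO libraries. Over 11297 genes its log2 values correlated more with Mc4r KO replicate 1 (0.962) than with WT replicates 1 and 2 (0.946 and 0.952).

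The levels spanned more than 3 orders of magnitude. Of the 94 genes, 10 had a mean of at least 10 FPKM over the 6 libraries, 13 lay between 1 and 10, 27 between 0.1 and 1, and 31 above 0 but below 0.1. The remaining 13 had no read in any library: Kcna10, Kcne2, Kcnf1, Kcng3, Kcnj1, Kcnj16, Kcnk10, Kcnk15, Kcnk16, Kcnk18, Kcnmb3, Kcns2 and Kcnv1. The highest mean belonged to Kcnk3 at 74.8 FPKM, followed by Kcng2 at 49.3, Kcnj11 at 38.1, Kcnip2 at 34.5, Kcnh2 at 19.9, Kcnj8 at 19.5, Kcnj5 at 17.7, Kcna5 at 13.8, and Kcnj3 and Kcnj12 at 11.0 each. Kcnq1 followed at 7.94, Kcnj2 at 6.92 and Kcnd2 at 4.84, while Kcnd3 had 1.81. The ranges of neighbours in this order overlapped in 21 of 22 pairs of the genes with at least 1 FPKM, and only the ranges of Kcnn2 and Kcnd3 were apart. Kcnk3 was the highest member in all 6 libraries, and the 4 highest members together took 51.2% to 61.0% of the FPKM of all 94.

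**Figure D1:**
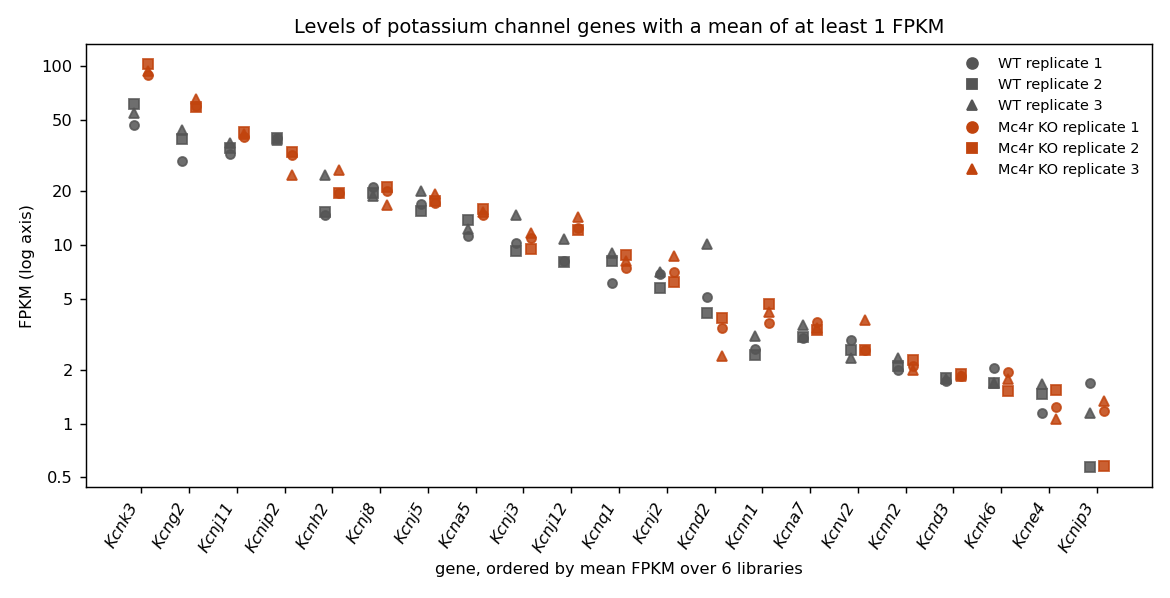
FPKM of 21 of the 23 potassium channel genes with a mean of at least 1 FPKM, on a log axis, ordered by their mean, with 1 point per library (WT in grey, Mc4r KO in orange, symbols for the replicate number). Kcnk3 and Kcng2 have the highest means, and their Mc4r KO points lie above their WT points, and WT replicate 3 lies above the other libraries for Kcnd2 and Kcnj3.

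Summed over the 94 genes, the FPKM was 283, 309 and 340 in the WT libraries, against 369, 389 and 390 in the Mc4r KO libraries. The groups did not overlap. Most of this difference lay in the highest members. Kcnk3 took 16.6%, 19.9% and 16.0% of the sum in WT and 24.1%, 26.3% and 24.2% in Mc4r KO. Kcng2 took 10.4%, 12.6% and 12.9% in WT and 16.1%, 15.2% and 16.7% in Mc4r KO. The sum therefore does not show a rise of the potassium channel genes as a whole. As a percentage of the FPKM outside the mitochondrial chromosome the sums were 0.131, 0.143 and 0.139 in WT and 0.149, 0.147 and 0.149 in Mc4r KO, where the gap between the groups was narrower. In a bulk sample, fewer cells of a type and less RNA per cell cannot be told apart, and this holds for every value given here.

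To ask which of these genes differ between Mc4r KO and WT hearts, all genes with a mean of at least 0.1 FPKM were tested together with limma on log2(FPKM + 0.1), and fold changes are on this scale, which understates the change of low genes. A gene was called when its adjusted p was under 0.05 and its log2 fold change above 0.75 or below -0.75. Of the 18035 genes tested, 0.460% were called. Of the 94 potassium channel genes, 50 passed the filter on low values and 1 of them, Kcnk3, was called (2%). At an unadjusted p under 0.05, 8 of the 50 (16%) were higher and 6 (12%) lower in Mc4r KO, beside 12.0% and 8.83% of all genes tested. In 9 genes (18%) all Mc4r KO libraries lay above all WT libraries, and in 7 (14%) below, beside 14.1% and 12.4% of all genes tested. These shares were near the background. By role, 2 genes were higher and 1 lower at an unadjusted p under 0.05 among 6 two-pore genes tested, 3 and 1 among 8 inward rectifiers, 1 and 1 among 9 Kv2 to Kv4 and silent subunits, 1 and 1 among 7 Kv1 genes, 1 and 1 among 6 calcium- or sodium-activated genes, and 0 and 1 among 10 accessory genes. The other 4 genes tested did not reach it in limma. The median log2 fold change of the 50 genes was -0.04, beside -0.01 over all genes tested.

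**Figure D2:**
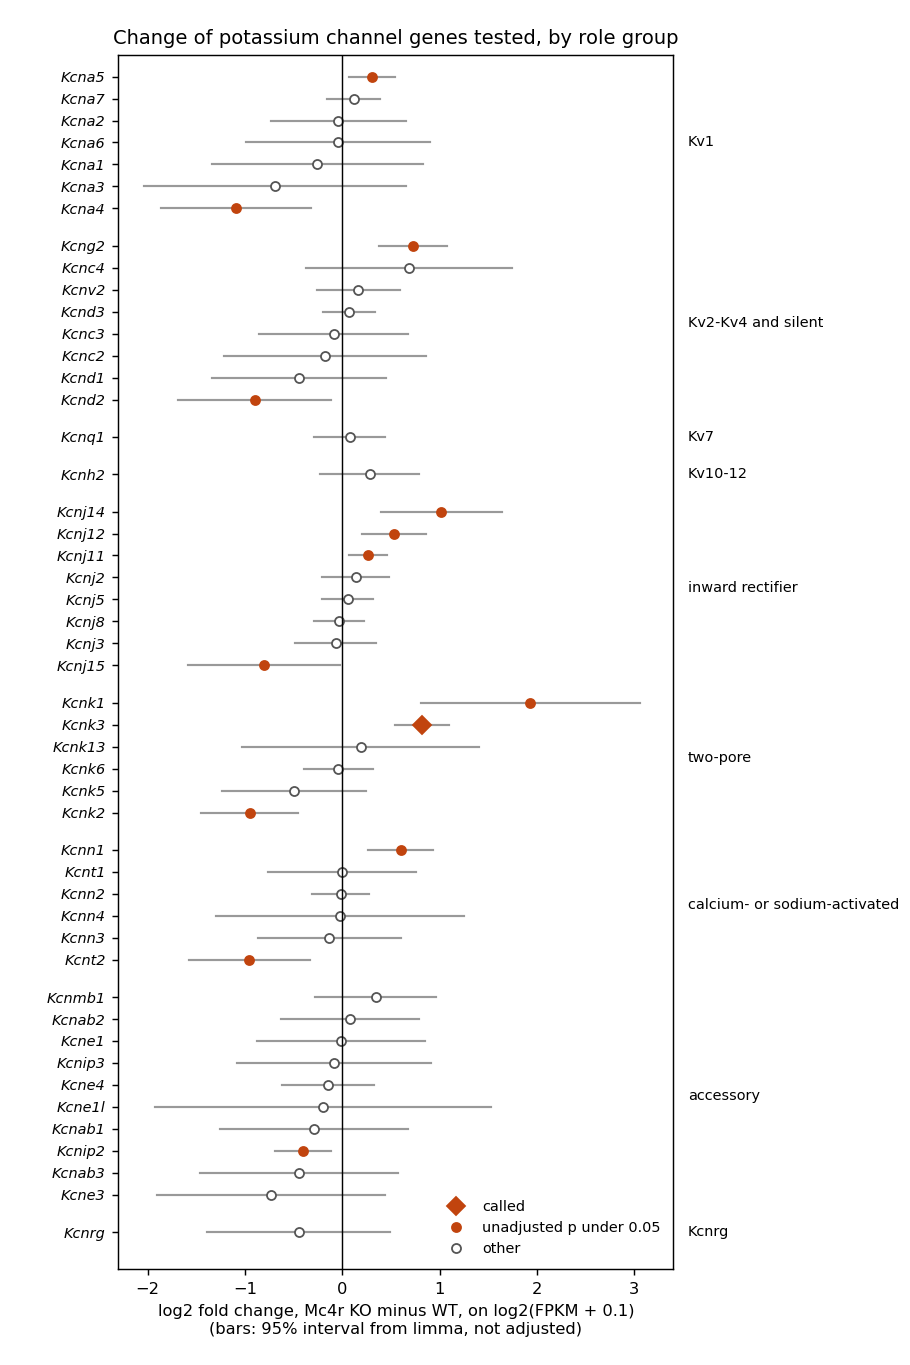
Log2 fold change of 48 of the 50 potassium channel genes tested, Mc4r KO minus WT on log2(FPKM + 0.1), grouped by role, with 95% intervals from limma that are not adjusted for the number of genes. Kcnk3, drawn as a diamond at 0.82, was called, and the other filled points are the 13 genes with an unadjusted p under 0.05 that were not called.

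Kcnk3 encodes an acid-sensitive two-pore channel that carries background current in cardiomyocytes and in pulmonary artery smooth muscle. It lies on chromosome 5 from 30588170 to 30625271 (mm10), and 5.76% of its exonic bases overlap the opposite-strand gene Gm9899. It had 46.9, 61.4 and 54.5 FPKM in WT and 89.2, 102 and 94.3 FPKM in Mc4r KO. Every Mc4r KO library lay above every WT library, with 2627 to 3691 reads on the gene in WT and 5502 to 6190 in Mc4r KO. Kcnk3 rose from 54.3 ± 7.29 to 95.3 ± 6.72 FPKM (SD, n = 3 each), or by 0.82 on the log2 scale with a standard error of 0.12 and a limma adjusted p of 0.0442. The 95% interval of the change was 0.54 to 1.09. The adjusted p was close to the threshold, and the call held in 7 of 19 other fits, whose adjusted p ran from 0.00566 to 0.31. Of these 7, the fit scaled by median-of-ratios factors repeats the reported one, because the factors were equal in all libraries. The limma adjusted p was 0.0199 without WT replicate 3. It was 0.137 without WT replicate 1, 0.0859 without WT replicate 2, 0.111 without Mc4r KO replicate 1, 0.175 without Mc4r KO replicate 2 and 0.155 without Mc4r KO replicate 3, so that leaving out any of these 5 libraries ended the call while the log2 fold change stayed between 0.72 and 0.91. Scaled to the FPKM outside the mitochondrial chromosome, which shifts the median of all genes from -0.01 to -0.19, the log2 fold change was 0.62 with an adjusted p of 0.081.

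The other two-pore channels did not share a direction. Kcnk2, which encodes a channel opened by membrane stretch and by fatty acids, had 1.35, 0.930 and 0.927 FPKM in WT and 0.443, 0.506 and 0.542 FPKM in Mc4r KO. All Mc4r KO libraries lay below all WT libraries, with 34 to 43 reads against 66 to 94. Its log2 fold change was -0.95 with a standard error of 0.21 and a limma adjusted p of 0.0882. It passed both thresholds without WT replicate 3 (-1.04, adjusted p 0.0469), with limma voom on the recovered reads (-1.07, adjusted p 0.0426) and with protein-coding genes alone (adjusted p 0.0469). Limma voom called 1.74% of all genes tested and the protein-coding fit 1.51%, more than the 0.460% of the reported fit. In Kcnk2, 12.2% of the exonic bases overlap the opposite-strand gene A430027H14Rik. Kcnk1, a weak inwardly rectifying two-pore channel, had few reads, 5, 3 and 3 in WT and 12, 21 and 52 in Mc4r KO. Those reads correspond to 0.159, 0.0935 and 0.0788 FPKM and to 0.346, 0.618 and 1.45 FPKM, and the groups did not overlap. A log2 fold change of 1.93 had a standard error of 0.48 and a limma adjusted p of 0.102. In Kcnk1, 8.01% of the exonic bases overlap the opposite-strand gene Gm45875. Kcnk6, a relative of Kcnk1, had 1.80 ± 0.204 FPKM in WT and 1.74 ± 0.210 in Mc4r KO, a difference within the spread of the replicates. Kcnk5, an alkaline-activated two-pore channel, lay lower in FPKM in all Mc4r KO libraries with a limma adjusted p of 0.416, but its reads, 14, 15 and 29 in WT and 10, 15 and 11 in Mc4r KO, did overlap.

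**Figure D3:**
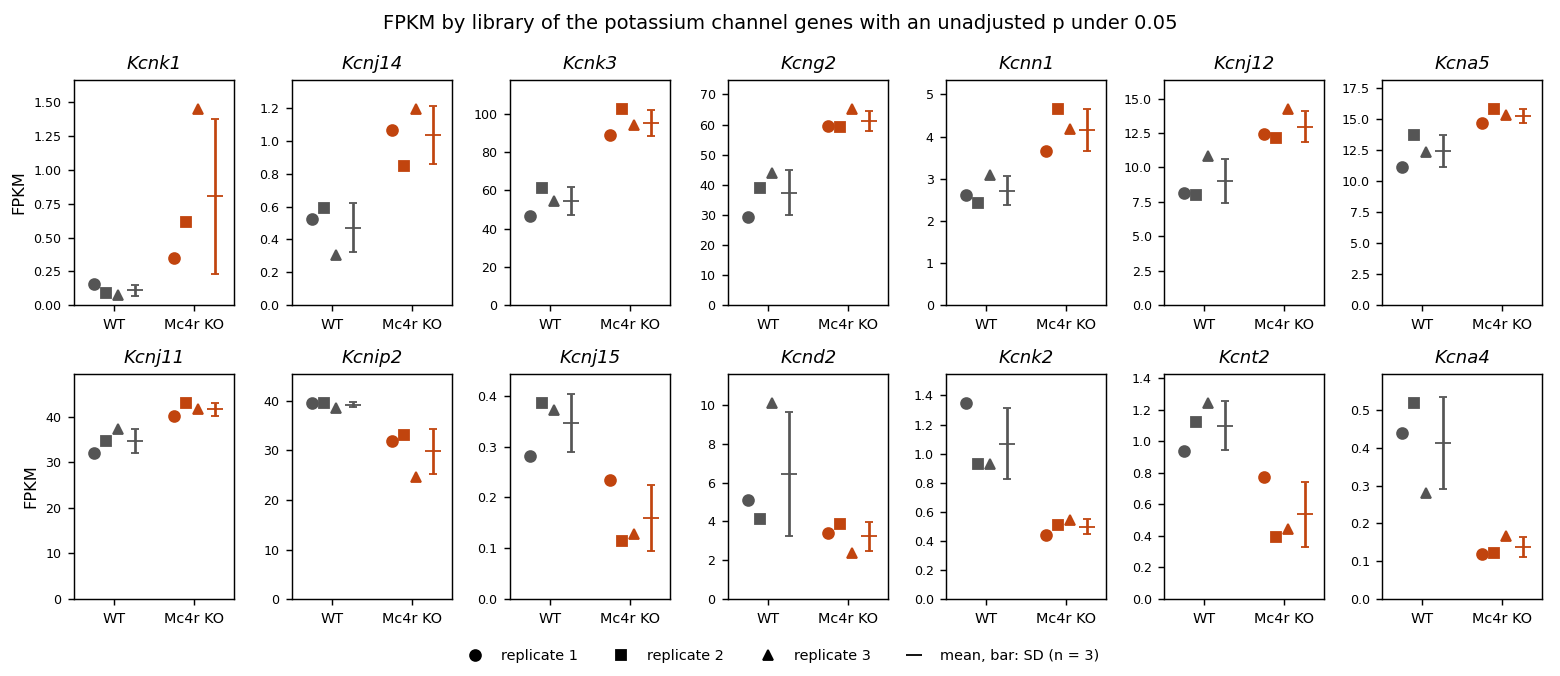
FPKM in each library of the 14 potassium channel genes with an unadjusted p under 0.05, with WT in grey, Mc4r KO in orange, a symbol for each replicate number, and the mean with its SD (n = 3) beside the points. Each y axis starts at 0. The 8 genes higher in Mc4r KO come first, from Kcnk1 to Kcnj11, and the 6 lower ones follow, from Kcnip2 to Kcna4; in all 14 the groups do not overlap.

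Among the Kv2 to Kv4 genes and the silent subunits that assemble with Kv2, Kcng2 had the highest level. Kcng2 encodes a silent subunit, which forms no channel alone and alters the gating of Kv2 channels. It had 29.4, 38.9 and 43.9 FPKM in WT and 59.6, 59.2 and 65.1 FPKM in Mc4r KO. The lowest Mc4r KO library lay above WT replicate 3, the highest WT library. The log2 fold change was 0.73 with a standard error of 0.15 and a limma adjusted p of 0.0756, and without WT replicate 3 it was 0.85 with an adjusted p of 0.018, which passes both thresholds. In Kcng2, 9.1% of the exonic bases overlap the opposite-strand gene D330025C20Rik. Kcng2 lies on chromosome 18, 13.4 Mb from Mc4r. Kcnn2 lies on the same chromosome, 21.6 Mb to the other side of Mc4r.

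Of the genes of the transient outward current, Kcnd2, Kcna4 and Kcnip2 lay lower in every Mc4r KO library and Kcnd3 did not, though none was called. Kcnd2, a Kv4 pore subunit, had 5.12, 4.14 and 10.1 FPKM in WT and 3.41, 3.87 and 2.38 FPKM in Mc4r KO. WT replicate 3, the library with the highest atrial markers, lay far above the other 5, while WT replicate 2 and Mc4r KO replicate 2 were close to each other. Its log2 fold change was -0.90 with a standard error of 0.33 and a limma adjusted p of 0.194, and without WT replicate 3 it was -0.53 with an adjusted p of 0.187. Kcnd3, the other Kv4 gene with at least 1 FPKM, had 1.74, 1.80 and 1.76 FPKM in WT and 1.83, 1.90 and 1.84 FPKM in Mc4r KO. The replicates were tightly grouped and the groups did not overlap, but the log2 fold change was 0.07 with a 95% interval of -0.20 to 0.34, and it was -0.12 when scaled outside the mitochondrial chromosome.

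Kcnip2, the KChIP subunit that brings Kv4 channels to the membrane, had 39.6, 39.5 and 38.6 FPKM in WT and 31.9, 33.1 and 24.5 FPKM in Mc4r KO. The WT libraries differed by about 1 FPKM, WT replicate 3 included, and all Mc4r KO libraries lay below them. The mean was 39.2 ± 0.542 FPKM in WT and 29.8 ± 4.61 in Mc4r KO (SD, n = 3 each), which is -0.41 on the log2 scale with a standard error of 0.12 and a limma adjusted p of 0.133. Kcna4, the Kv1 subunit of the slowly recovering transient outward current, had 0.440, 0.519 and 0.279 FPKM in WT and 0.120, 0.123 and 0.168 FPKM in Mc4r KO. These were 23 to 36 reads against 9 to 13, without overlap. For Kcna4 the log2 fold change was -1.09 with a standard error of 0.33 and a limma adjusted p of 0.134.

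The promoters of these transient outward genes are shown because all 3 genes lay lower in Mc4r KO, beside those of Kcna5 and Kcnj12, which lay higher. Each sequence runs from 250 bases before to 50 bases after a transcription start, is written 5′ to 3′ on the strand of the gene and comes from RefSeq (GRCm38.p6). Capitals mark the GC box GGGCGG on either strand, the letters that the factor Sp1 is known to bind. The windows are chr6:21215096-21215395 on the plus strand, chr19:45816014-45816313 on the minus strand and chr2:107290339-107290638 on the plus strand, then chr6:126535506-126535805 on the minus strand and chr11:61065554-61065853 on the plus strand, the last at a start inside the gene.
Kcnd2: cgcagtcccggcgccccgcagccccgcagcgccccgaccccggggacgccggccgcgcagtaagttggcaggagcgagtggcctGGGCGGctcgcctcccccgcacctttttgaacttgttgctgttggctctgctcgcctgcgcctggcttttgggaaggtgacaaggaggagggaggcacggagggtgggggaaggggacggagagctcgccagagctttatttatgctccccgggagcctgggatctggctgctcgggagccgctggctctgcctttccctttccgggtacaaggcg
Kcnip2: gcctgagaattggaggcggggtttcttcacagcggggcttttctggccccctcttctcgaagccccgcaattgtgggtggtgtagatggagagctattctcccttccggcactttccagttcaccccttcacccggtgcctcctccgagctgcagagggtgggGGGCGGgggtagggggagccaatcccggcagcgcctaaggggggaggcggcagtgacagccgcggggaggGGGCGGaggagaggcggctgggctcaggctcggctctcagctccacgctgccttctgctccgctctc
Kcna4: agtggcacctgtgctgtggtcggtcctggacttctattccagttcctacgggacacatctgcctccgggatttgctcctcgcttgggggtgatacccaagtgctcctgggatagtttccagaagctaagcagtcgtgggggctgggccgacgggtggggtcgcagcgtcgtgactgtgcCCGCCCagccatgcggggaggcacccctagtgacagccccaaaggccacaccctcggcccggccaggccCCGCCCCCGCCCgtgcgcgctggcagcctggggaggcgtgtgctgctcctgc
Kcna5: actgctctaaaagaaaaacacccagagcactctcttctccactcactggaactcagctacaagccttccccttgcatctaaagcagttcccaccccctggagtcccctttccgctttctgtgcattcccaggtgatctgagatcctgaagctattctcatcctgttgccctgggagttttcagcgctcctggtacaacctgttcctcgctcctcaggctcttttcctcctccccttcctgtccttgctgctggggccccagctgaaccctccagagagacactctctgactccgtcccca
Kcnj12: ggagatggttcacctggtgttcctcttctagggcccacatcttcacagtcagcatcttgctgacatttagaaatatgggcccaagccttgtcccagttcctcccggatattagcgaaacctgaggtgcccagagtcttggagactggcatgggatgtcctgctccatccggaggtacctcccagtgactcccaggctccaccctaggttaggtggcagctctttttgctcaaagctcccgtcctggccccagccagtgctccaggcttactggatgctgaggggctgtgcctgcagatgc

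The window of Kcnd2 holds 1 GC box, that of Kcnip2 holds 2 and that of Kcna4 holds 3, of which 2 adjoin each other at the start site. Those of Kcna5 and Kcnj12 hold none of the 5 motifs searched on both strands. These were the GC box, the TATA box (TATAAA), the E-box that the clock factors bind (CACGTG), the GATA core (AGATAA) and the core of the MEF2 site, CTA and TAG parted by 4 letters; none of them contains another. The other genes with an unadjusted p under 0.05 whose promoters were found showed no such split. Of those that lay higher, Kcnn1 holds 2 GC boxes in 1 of its 2 windows and Kcnk1 holds none. Of those that lay lower, Kcnt2 and Kcnj15 hold none and Kcnk2 holds 1 in 1 of its 4 windows. A GC box stands in 35.7% of the 32851 mouse promoters of this length and in 47.9% of the 94 promoters of the 69 potassium channel genes found in the set, so its presence is common. The potassium channel promoters had a median GC content of 58.0% beside 52.7% for all promoters. The TATA box stood in 5.32% of them beside 13.6% of all, the E-box in 7.45% beside 7.15%, the MEF2 core in 2.13% beside 3.69% and the GATA core in 4.26% beside 11.2%. Of the 14 genes with an unadjusted p under 0.05, 10 had a promoter in the set.

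The Kv1 genes other than Kcna4 were represented by Kcna5, which carries an ultrarapid sustained current, and by Kcna7. Kcna5 had 11.1, 13.7 and 12.3 FPKM in WT and 14.6, 15.8 and 15.3 FPKM in Mc4r KO. The groups did not overlap, but WT replicate 2 came within 1 FPKM of Mc4r KO replicate 1. For Kcna5 the log2 fold change was 0.30 with a standard error of 0.10 and a limma adjusted p of 0.155, and 0.11 when scaled outside the mitochondrial chromosome (adjusted p 0.58). Kcna7 had 3.21 ± 0.319 FPKM in WT and 3.48 ± 0.191 in Mc4r KO, with overlapping groups. Kcna5 stands within 200 kb of Kcna1 and Kcna6 on chromosome 6, and those neighbours had means of only 0.438 and 0.280 FPKM. WT replicate 3 was the highest library for both neighbours, with 0.934 FPKM of Kcna1 and 0.514 of Kcna6. In Kcna6, 39.6% of the exonic bases overlap the opposite-strand gene Gm26673, so part of its reads could be shared with it.

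The delayed rectifier genes showed no difference larger than the spread. Kcnh2, the ERG channel of the rapid delayed rectifier, had 14.8, 15.2 and 24.5 FPKM in WT and 19.5, 19.4 and 26.1 FPKM in Mc4r KO. WT replicate 3 lay above 2 of the 3 Mc4r KO libraries and far above the other WT libraries. Its log2 fold change was 0.28 (95% interval -0.23 to 0.79) with a limma adjusted p of 0.509, and without WT replicate 3 it was 0.52 with an adjusted p of 0.0767, while the mitochondrial scaling above gave 0.09. Kcnq1, the pore of the slow delayed rectifier, had 7.77 ± 1.48 FPKM in WT and 8.12 ± 0.716 in Mc4r KO, and the 95% interval of its log2 fold change was -0.29 to 0.44. Its partner Kcne1 had 0.530, 1.04 and 0.676 FPKM in WT and 0.802, 0.410 and 1.09 in Mc4r KO, with 20 to 56 reads and an interval of -0.87 to 0.85. The groups overlapped for both, and the interval of Kcne1 was wide.

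**Figure D4:**
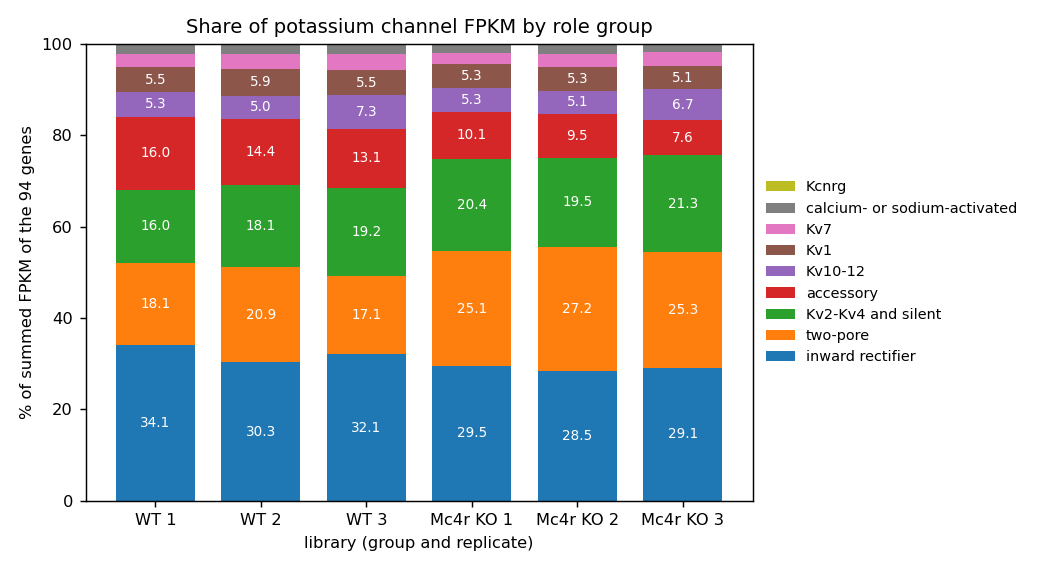
Percentage of the summed FPKM of the 94 potassium channel genes taken by each role group, stacked for each of the 6 libraries and printed inside the segments above 4%. The two-pore segment is larger (25.1% to 27.2%) and the accessory segment smaller (7.64% to 10.1%) in the Mc4r KO libraries than in the WT libraries. The summed FPKM itself was higher in the Mc4r KO libraries, so a smaller segment is not by itself lower FPKM.

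The inward rectifiers held the largest share of the potassium channel FPKM, 30.3% to 34.1% in WT and 28.5% to 29.5% in Mc4r KO. The sum behind these shares was higher in every Mc4r KO library, so the lower share does not mean lower FPKM. Of their 15 genes, 8 were tested, of which 3 were higher and 1 lower at an unadjusted p under 0.05, beside 12.0% and 8.83% of all genes tested. Kcnj12, which encodes a strong inward rectifier that sets the resting voltage together with Kcnj2, had 8.15, 7.98 and 10.8 FPKM in WT and 12.5, 12.1 and 14.2 FPKM in Mc4r KO. WT replicate 3 was the highest WT library and lay below all Mc4r KO libraries. The log2 fold change was 0.53 with a standard error of 0.14 and a limma adjusted p of 0.108, and without WT replicate 3 it was 0.67 with an adjusted p of 0.0163, where the adjusted p passes and the fold change does not. Under the mitochondrial scaling above it was 0.34. Kcnj2, with 6.87, 5.74 and 7.09 FPKM in WT and 7.02, 6.19 and 8.61 FPKM in Mc4r KO, had overlapping groups. Its log2 fold change was 0.14 (95% interval -0.21 to 0.48) and -0.05 when scaled outside the mitochondrial chromosome.

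The pore subunits of the ATP-sensitive channels differed in their values. Kcnj11, the pore of the sarcolemmal channel of ventricular muscle, had 32.1, 34.6 and 37.2 FPKM in WT and 40.1, 43.0 and 41.6 FPKM in Mc4r KO. The groups did not overlap, and the log2 fold change was 0.26 with a standard error of 0.08 and a limma adjusted p of 0.151. Scaled outside the mitochondrial chromosome it was 0.07 with an adjusted p of 0.64. Kcnj8, the pore known from vascular smooth muscle and pericytes, had 20.99, 19.6 and 18.6 FPKM in WT and 19.9, 21.2 and 16.7 FPKM in Mc4r KO, with overlapping groups and a 95% interval of -0.30 to 0.22. Abcc9, the sulfonylurea receptor that assembles with either pore, was listed among the partner genes and had 62.3, 61.4 and 45.8 FPKM in WT and 38.5, 39.0 and 47.1 FPKM in Mc4r KO. WT replicate 3 lay below Mc4r KO replicate 3, and the log2 fold change of -0.44 had a limma adjusted p of 0.161.

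The acetylcholine-activated genes Kcnj3 and Kcnj5, which are rich in atrial muscle, did not differ beyond their spread. Kcnj3 had 10.3, 9.24 and 14.6 FPKM in WT and 10.96, 9.52 and 11.6 FPKM in Mc4r KO, and Kcnj5 had 17.0, 15.4 and 19.9 FPKM in WT and 17.2, 17.5 and 19.3 FPKM in Mc4r KO. WT replicate 3 was the highest library for both. The log2 fold change of Kcnj3 was -0.07 (95% interval -0.48 to 0.35) and turned to 0.13 without WT replicate 3, and that of Kcnj5 was 0.05 (-0.21 to 0.32). In Kcnj3, 31.1% of the exonic bases overlap the opposite-strand gene Gm26794, so part of its reads could be shared with it.

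The low inward rectifiers Kcnj14 and Kcnj15 went opposite ways. Kcnj14, a strong inward rectifier known from neurons, had 0.522, 0.589 and 0.303 FPKM in WT and 1.07, 0.848 and 1.19 FPKM in Mc4r KO, from 14 to 23 reads against 35 to 52. Without overlap between the groups, the log2 fold change was 1.02 with a standard error of 0.26 and a limma adjusted p of 0.108. Its level is uncertain because 30.8% of its stretches of 50 bases also occur in the transcripts of Gm5522. Kcnj15, a weak inward rectifier known from epithelia, had 0.281, 0.386 and 0.372 FPKM in WT and 0.235, 0.115 and 0.128 FPKM in Mc4r KO, with a log2 fold change of -0.80, a standard error of 0.33 and a limma adjusted p of 0.228.

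Of the 8 calcium- or sodium-activated genes, Kcnn1 and Kcnt2 had an unadjusted p under 0.05. Kcnn1, a small-conductance channel opened by calcium through calmodulin, had 2.61, 2.43 and 3.10 FPKM in WT and 3.65, 4.65 and 4.19 FPKM in Mc4r KO. The groups did not overlap, and the log2 fold change was 0.60 with a standard error of 0.14 and a limma adjusted p of 0.0962. Kcnn2, its relative with a known current in atrial muscle, had 2.14 ± 0.173 FPKM in WT and 2.12 ± 0.133 in Mc4r KO, with a 95% interval of -0.31 to 0.27 for the log2 fold change. Kcnt2, a channel opened by intracellular sodium, had 0.936, 1.12 and 1.24 FPKM in WT and 0.776, 0.391 and 0.443 FPKM in Mc4r KO. Mc4r KO replicate 1 lay between the other Mc4r KO libraries and the WT libraries. The log2 fold change was -0.95 with a standard error of 0.26 and a limma adjusted p of 0.12, and with limma voom on the recovered reads it was called (-1.10, adjusted p 0.0406). Kcnma1, the large-conductance channel of smooth muscle, had 1 to 15 reads per library and was not tested.

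The accessory genes took 16.0%, 14.4% and 13.1% of the potassium channel FPKM in the WT libraries, against 10.1%, 9.54% and 7.64% in the Mc4r KO libraries. The groups did not overlap, and most of this FPKM was that of Kcnip2. The two-pore genes, mostly Kcnk3, took 18.1%, 20.9% and 17.1% in WT and 25.1%, 27.2% and 25.3% in Mc4r KO. Kcne4, an inhibitory subunit of Kv1 and Kv7 channels and the next accessory gene by level, had 1.42 ± 0.258 FPKM in WT and 1.28 ± 0.243 in Mc4r KO with overlapping groups. Kcnrg, which encodes a cytoplasmic regulator of Kv channel assembly, had 3 to 8 reads per library and overlapping groups.

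Of the 44 genes under the filter, 31 had reads, and only Kcnh7 had a mean of at least 10 of them. Kcnh7, an ERG channel known from neurons, had 32, 25 and 31 reads in WT and 5, 14 and 17 reads in Mc4r KO, which is 0.149, 0.114 and 0.120 FPKM against 0.0212, 0.0605 and 0.0696. The groups did not overlap, and in the fit without a filter the log2 fold change was -0.61 with a limma adjusted p of 0.339. Kcnc1, chosen after its values were seen, had 20, 18 and 5 reads in WT and 1, 3 and 2 in Mc4r KO, and its limma adjusted p in that fit was 0.295. For Kcnc1, WT replicate 3 was the WT library nearest to the Mc4r KO libraries.

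WT replicate 3 was the highest of the 6 libraries for 17 of the 50 potassium channel genes tested (34%), beside 16.1% of all genes tested. For 12 genes (24%) the highest library was Mc4r KO replicate 3, beside 14.3% of all genes tested. The atrial markers were highest in WT replicate 3 and, in the mean, all 7 were lower in Mc4r KO, with 0 called and 0 at an unadjusted p under 0.05. Without this library, 3 of 49 potassium channel genes tested were called, Kcnk3 and Kcng2 as higher and Kcnk2 as lower, beside 4.04% of the 17966 genes tested in that fit, and the median log2 fold change of the group was 0.12. The part of atrial tissue in the other differences was not tested.

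The markers of other cells that could carry these channels had these values beside the results. The 5 fibroblast markers summed to 163 to 174 FPKM in WT and 123 to 138 in Mc4r KO, and the 5 smooth muscle markers to 68.2 to 105 in WT and 67.9 to 143 in Mc4r KO. The 5 pericyte markers summed to 167 to 265 in WT and 174 to 200 in Mc4r KO, and the 8 neuron and glia markers to 2.01 to 3.91 in WT and 2.23 to 2.74 in Mc4r KO, with Th at 0 in all libraries. The summed levels of the fibroblast and of the ventricular markers did not overlap between the groups, and those of the other 3 lists did. The fibroblast sum was mostly Dcn, and the other 4 fibroblast markers summed to 37.9, 47.8 and 65.1 FPKM in WT and 50.5, 51.2 and 40.1 in Mc4r KO, which overlap. The ventricular sums stayed apart without Actc1, their highest marker, at 7122 to 7628 in WT and 8082 to 8662 in Mc4r KO. All marker sums are of deposited FPKM, not scaled outside the mitochondrial chromosome, whose share of reads was higher in every WT library. Relative to the FPKM outside the mitochondrial chromosome, the ventricular sums without Actc1 overlapped between the groups. The full ventricular sums stayed apart only narrowly. Blood and immune markers were lower in part: at an unadjusted p under 0.05, 3 of 5 macrophage markers, 3 of 5 red cell markers and 1 of 3 tested lymphocyte markers lay lower in Mc4r KO and none higher, with median log2 fold changes of -0.37, -1.64 and -1.36. Of all genes tested, 8.83% were lower and 12.0% higher at that unadjusted p. In each of these lists 0 markers were called. C1qa, the highest macrophage marker, went the other way in the mean, with 22.6, 22.7 and 51.2 FPKM in WT and 53.8, 46.2 and 39.7 in Mc4r KO. The macrophage markers summed to 50.04 to 87.6 FPKM in WT and 63.2 to 81.6 in Mc4r KO. Without C1qa their sums were 33.3, 27.3 and 36.4 in WT and 27.8, 25.5 and 23.5 in Mc4r KO, which overlap. The red cell markers summed to 859 to 6344 and 620 to 1651, and the lymphocyte markers to 0.535 to 2.16 and 0.285 to 0.565. All 3 full sums of these blood and immune markers overlapped. Whether they take part in the changes of potassium channel genes was not tested.

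Proteins that join, anchor or regulate these channels were followed in a list of 25 genes, of which 20 passed the filter. Of these 20, 5 were higher and 3 lower at an unadjusted p under 0.05, beside 12.0% and 8.83% of all genes tested, and 1, Fhl2, was called, beside 0.460% of all. Fhl2, a LIM-domain protein that binds the accessory subunit Kcne1, had 591, 604 and 549 FPKM in WT and 1017, 1185 and 1089 FPKM in Mc4r KO. It rose by 0.91 on the log2 scale (limma adjusted p 0.0355), with no overlap between the groups. Lrrc52, an accessory subunit of large-conductance channels, had 1.05, 1.83 and 0.976 FPKM in WT and 3.33, 4.61 and 3.54 FPKM in Mc4r KO, with a limma adjusted p of 0.0539. Cav3, the caveolin of muscle, had 30.2, 28.3 and 40.2 FPKM in WT and 48.6, 62.6 and 58.0 in Mc4r KO, with a limma adjusted p of 0.0744. Hcn4, the pacemaker channel, had 1.53, 1.58 and 1.63 FPKM in WT and 2.92, 2.71 and 4.86 in Mc4r KO, with a limma adjusted p of 0.0796. All 4 lay higher in every Mc4r KO library than in any WT library. The 5 markers of the conduction system, of which Hcn4 is a member, summed to 13.6 to 18.1 FPKM in WT and 14.3 to 17.0 in Mc4r KO.

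Irx3, a transcription factor, had 6.52, 8.07 and 9.55 FPKM in WT and 11.3, 10.01 and 14.7 in Mc4r KO, with a limma adjusted p of 0.153. Its relative Irx5, a known repressor of Kcnd2, had 2.42 ± 0.424 FPKM in WT and 3.59 ± 1.12 in Mc4r KO, with overlapping groups and a limma adjusted p of 0.276. Klf15, a factor known to act on Kcnip2, had 19.9 ± 2.48 and 24.0 ± 2.51 FPKM and overlapping groups. Fgf13, which binds sodium channels, had 15.5, 15.6 and 12.4 FPKM in WT and 10.2, 10.4 and 10.3 in Mc4r KO, with a limma adjusted p of 0.0932 and no overlap. The median log2 fold change of the 20 partner genes was 0.03.

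The genes whose values were most like those of Kcnk3 over the 6 libraries were found by Pearson's correlation of log2(FPKM + 0.1), as a description. They were Ppargc1b (0.998), Eef1a2 (0.997), Fbxw11 (0.997), Synpo (0.996) and Alpk3 (0.995). With 6 points that include both groups, strong correlations are common. With Kcnk3, 473 of the 18035 genes had a correlation above 0.95 or below -0.95, both signs counted together. Among the potassium channel genes the nearest were Kcna5 (0.969), Kcnd3 (0.954) and Kcng2 (0.938).

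The 94 genes lie on 19 chromosomes, and 10 pairs stand next to each other within 200 kb. Levels in these pairs were often unlike. Kcnj2 at 6.92 FPKM stands 38.2 kb from Kcnj16, which had no read, and Kcnj5 at 17.7 FPKM stands 28.1 kb from Kcnj1, which had none either. Kcne1 at 0.757 FPKM stands 47.9 kb from Kcne2, an accessory subunit that also had no read.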

How the data were processed

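RNA from the hearts of 3 WT and 3 Mc4r KO mice was sequenced in paired ends. Per the labels and the study's methods, the authors used HISAT2 (version 2.0.5) for alignment, featureCounts for counting and DESeq2 for their own comparison, which is not used here. The build is mm10 per the labels. The release of the annotation and the strand setting are not given in the sources used here. What the authors deposited is FPKM per gene and library. Multiplied by gene length and divided by the value of 1 read in that library, 100% of them came out as whole reads (within 0.1 read). The median-of-ratios factors of the deposited FPKM were equal, 1.0058 in each library, so no such scaling was left to apply. All columns of values were used.

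The members, lists and tests were chosen with earlier results of these data known. Limma (version 3.58.1, R 4.3.3) with a trend was run on log2(FPKM + 0.1) of genes whose mean FPKM reached 0.1, two-sided, with Benjamini-Hochberg adjustment over all of them. The scripts were tested on simulated data. Named genes are those called, those at an unadjusted p under 0.05, the 2 highest per role group and the defining genes of cardiac currents, except a few that are not reported here; other genes are the partner list and the 5 most like each called gene. Promoters and motifs come from RefSeq (GRCm38.p6), overlaps and shared stretches from GENCODE M21, in which all 94 members were found and 90 had the same start and end. Alternatives were other pseudocounts, filters, scalings and limma settings, the replicate block, the mitochondrial share as a covariate, limma voom and fits without each library. A floor of 3 reads and all read counts cover counting error only. P-values set the difference between the 2 groups against the spread between libraries within them, which limma moderates over all genes tested. That spread includes differences in the tissue taken as well as between mice. Python 3.11.15 and matplotlib 3.10.9 drew the plots.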

Additional observations from a re-analysis of the deposited data

How the results depend on the processing

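The number of calls over all genes, 83 as reported, was 44 with a pseudocount of 1, 22 without a filter, 147 with a mean of at least 1 FPKM, 49 after quantile normalization, 41 (16 higher and 25 lower, against 57 and 26) scaled outside the mitochondrial chromosome, 21 without the trend, 314 (1.74%) with limma voom and 204 (1.51%) with protein-coding genes only. With the mitochondrial share as a covariate limma called 0 genes, and 1891 had an unadjusted p under 0.05. Leaving out 1 library gave 7 to 726 calls, the most without WT replicate 3. Of the potassium channel genes, 0 were called with a pseudocount of 1, without a filter, after quantile normalization, scaled outside the mitochondrial chromosome, without the trend and with the mitochondrial covariate, where 14, 15, 11, 12, 13 and 6 had an unadjusted p under 0.05. Over all genes, the same fits had 3707, 4007, 3480, 4158, 3264 and 1891. They tested 50 potassium channel genes among 18035 genes, or 81 among 26539 without a filter. Limma voom called 3 (Kcnk3, Kcnk2 and Kcnt2) and the fit on protein-coding genes 2 (Kcnk3 and Kcnk2); without 1 library it was 0 to 3. The number at an unadjusted p under 0.05 was 8 of 23 with a mean of at least 1 FPKM, where fewer genes are tested. In that fit it was 3126 of 11297 over all genes. The number without overlap split 6 higher and 9 lower when scaled outside the mitochondrial chromosome, against 9 and 7. The split over all genes under that scaling is not given here. The median log2 fold change of the group was 0.077 with a mean of at least 1 FPKM, -0.20 scaled outside the mitochondrial chromosome, -0.33 with the mitochondrial covariate, and -0.084 to 0.12 without 1 library. The causes of these differences were not tested.

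The replicate numbers did not pair the samples: the deviations of same-numbered libraries had correlations of -0.141, 0.00735 and -0.0818, and no library correlated best with its own number. With the number as a replicate block, 11 genes were called over all genes and 0 potassium channel genes, and Kcnk3 had an adjusted p of 0.0903. In that fit 13 of the 50 potassium channel genes had an unadjusted p under 0.05, beside 3444 of 18035 genes.

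The sign turned for genes with small changes that were not called. Kcnd3 was at -0.12 scaled outside the mitochondrial chromosome, as were Kcnj2 at -0.054, Kcnj5 at -0.14 and Kcnq1 at -0.12. With the mitochondrial covariate Kcnh2 was at -0.35, Kcnj2 at -0.037, Kcnj5 at -0.17, Kcnj8 at 0.13 and Kcnq1 at -0.23. After quantile normalization Kcne1 was at 0.089, Kcnj5 at -0.057 and Kcnn2 at 0.037, and with a pseudocount of 1 Kcne1 was at 0.0063. Without 1 library each, Kcne1 ran from -0.28 to 0.33, Kcnj3 from -0.20 to 0.13, Kcnj5 from -0.030 to 0.15, Kcnj8 from -0.11 to 0.060, Kcnn2 from -0.064 to 0.044 and Kcnq1 from -0.082 to 0.19. Of the named genes set against each alternative in turn, 409 values kept their direction and side of the threshold, 12 lost the call, 5 gained it and 23 changed sign. All 12 losses belong to Kcnk3, the only gene called in the reported fit. For the other genes, keeping their side means staying uncalled, so the 409 are no measure of how stable a call is.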
